A study of Homo sapiens with 9 samples.

Results

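The keratins described here are 10 genes of epithelial intermediate filaments, *KRT5*, *KRT7*, *KRT8*, *KRT80* and *KRT81* of type II and *KRT10*, *KRT15*, *KRT17*, *KRT18* and *KRT19* of type I. They were taken by symbol, through their NCBI gene identifiers, from the 28395 genes of the count table, and all 10 were found. RNA was sequenced from HK2, a proximal tubule line made from normal human kidney and immortalized with papillomavirus genes, from 786-O, a line of a primary clear cell renal cell carcinoma (ccRCC), and from 786-M1A, which was derived from 786-O by way of lung metastases in mice. No line was treated or edited, all grew stably in Plasmax, a medium modelled on the nutrients of human serum, and each was sequenced as 3 libraries. The methods describe 5 replicate dishes, while the data hold 3 libraries of each line. The spread between libraries is thus taken as the spread between dishes. Each condition is represented by a single line, with HK2 and 786-O from different people. The p-values therefore measure only the spread between these libraries, which may be technical, and a difference between lines cannot be told apart from one between donors, clones or cultures. In bulk RNA, fewer cells of a kind and less RNA per cell cannot be told apart either.

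Keratins form filaments only as pairs of a type I and a type II chain, and the filaments are anchored to neighbouring cells at desmosomes. *KRT8* and *KRT18* are the pair of simple epithelia and are made along the whole kidney tubule, while *KRT7* and *KRT19* are best known in the distal tubule, the collecting duct and other ducts. *KRT5*, *KRT15* and *KRT17* belong to basal cells of layered epithelia, with *KRT17* also made in wounds and under stress, *KRT10* to the differentiating layers of the epidermis, and *KRT81* to hair. A lack of KRT7 protein is a usual feature of clear cell tumors in diagnostic pathology.

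Reads on genes numbered between 30212291 and 45362428 per library, and 3 counts, taken as the floor of detection, correspond to 0.0661 to 0.0993 CPM, the counts scaled to a common library size. This floor and the intervals of summed counts cover counting error only. The labelled cell type of HK2 was checked against 12 proximal tubule markers. Of these, *ANPEP* and *GGT1* were the 2 at 1 CPM or more in HK2, and *LRP2*, *SLC22A6* and *SLC22A8* had 0 counts there. In each cancer line 3 were at 1 CPM or more. The 12 summed to between 108 and 114 CPM in HK2, 192 and 198 CPM in 786-O and 106 and 117 CPM in 786-M1A. The sum was therefore not higher in HK2 than in the cancer lines, and that of 786-O lay above the others. Of the 2 markers tested, *ANPEP* was higher than in HK2, by log2 values of 6.01 in 786-O and 3.52 in 786-M1A. *GGT1* was lower, by -0.42 and -0.29, so that the like sums of HK2 and 786-M1A differ in make-up. The 8 markers of the distal nephron and collecting duct summed to between 0.928 and 1.03 CPM in HK2, to between 0.135 and 0.330 CPM in 786-O and to between 0.0264 and 0.0521 CPM in 786-M1A, with *AQP2* and *UMOD* at 0 counts in every line. The 4 ccRCC markers in the table summed to between 23.3 and 24.1 CPM in HK2. Their sums were between 197 and 231 CPM in 786-O and between 455 and 467 CPM in 786-M1A. Of these 4 markers, 3 were at 1 CPM or more in each line, and *CA9* had 0 counts in HK2. The 6 markers of blood and endothelial cells summed to between 26.4 and 53.3 CPM, with *CD68* the single one at 1 CPM or more and *PTPRC* at 0 counts in every line. The 7 fibroblast markers summed to between 77.7 and 87.0 CPM in HK2, between 282 and 351 CPM in 786-O and between 302 and 306 CPM in 786-M1A. Of the 4 fibroblast markers tested, *COL1A1*, *COL3A1* and *LUM* were lower in 786-M1A than in 786-O, by log2 values of -4.15, -8.23 and -1.42, and *PDGFRB* was higher, by 6.75, so that the sums alike in the cancer lines are of different genes. The part of these marker genes in the keratin differences was not tested.

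The type II keratins lie on chromosome 12 together with the type I gene *KRT18*, and the other type I keratins lie on chromosome 17 of the hg38 build. *KRT5* (NCBI gene 3852, chromosome 12, 52514575 to 52520394, minus strand) and *KRT10* (NCBI gene 3858, chromosome 17, 40818117 to 40822614, minus strand) are shown with their promoters, as the member with 0 counts in HK2 and the member that was higher in both cancer lines. RefSeq (GRCh38.p14) gave windows around the transcription start for 3 of the 10 members, and that of *KRT8* is not shown because it starts 21393 bases from the start of the canonical transcript in GENCODE. The 250 bases before the start are given on the minus strand, chr12:52520395-52520644 for *KRT5* and chr17:40822615-40822864 for *KRT10*, with matches to the searched motifs in capitals.
KRT5: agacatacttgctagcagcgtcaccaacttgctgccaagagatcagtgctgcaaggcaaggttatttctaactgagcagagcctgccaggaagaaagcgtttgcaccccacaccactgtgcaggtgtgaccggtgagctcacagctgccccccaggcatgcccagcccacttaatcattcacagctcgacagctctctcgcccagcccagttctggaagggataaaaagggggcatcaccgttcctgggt
KRT10: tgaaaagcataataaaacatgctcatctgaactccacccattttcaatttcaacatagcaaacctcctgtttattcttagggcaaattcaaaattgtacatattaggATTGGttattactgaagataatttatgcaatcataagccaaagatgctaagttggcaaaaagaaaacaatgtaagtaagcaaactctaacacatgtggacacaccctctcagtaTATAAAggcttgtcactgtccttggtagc

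The motifs searched on both strands were TATAAA, the CCAAT box (CCAAT), the GC box (GGGCGG) and the AP-1 site (TGANTCA). In *KRT10* the letters TATAAA began 29 bases before the start and CCAAT was matched on the other strand, 143 bases before it. *KRT5* held none of the 4. Of 35116 promoter windows of the same length, 10.7% held TATAAA, 32.0% CCAAT, 42.6% GGGCGG and 6.57% TGANTCA. The *KRT10* window had 0 CG dinucleotides and the *KRT5* window 6, against a median of 11 over all windows.

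The keratin mRNA pool was largest in HK2 and smallest in 786-O. Summed over the 54 type I and type II keratin genes of the table, HK2 libraries had 1678, 1720 and 1706 CPM, 786-O libraries 678, 653 and 634 CPM and 786-M1A libraries 965, 900 and 865 CPM. The 10 genes described here held between 97.5% and 99.6% of this pool in every library when counts were divided by coding length. *KRT8* was the most abundant member in each line on the scale of CPM per kb of coding length, with 456 ± 6.70 (SD, n = 3) in HK2, 207 ± 10.3 for 786-O and 265 ± 15.8 for 786-M1A. In HK2 the order of levels was *KRT8*, *KRT18*, *KRT7*, *KRT80*, *KRT19*, *KRT17*, *KRT10*, *KRT81*, *KRT15* and *KRT5*, and the libraries of neighbours in this order did not overlap. In 786-O it was *KRT8*, *KRT18*, *KRT80*, *KRT10*, *KRT15*, *KRT19*, *KRT17*, *KRT81*, *KRT7* and *KRT5*, where *KRT15* and *KRT19* overlapped. In 786-M1A *KRT19* came after *KRT8* and overlapped with *KRT18*, followed by *KRT80*, *KRT10*, *KRT15*, *KRT81*, *KRT7*, *KRT17* and *KRT5*, with overlap between *KRT81* and *KRT7* and between *KRT7* and *KRT17*. These orders rest on coding length, while reads may fall on the whole transcript. The *KRT80* transcript has 3873 bases against a coding length of 1359, and that of *KRT19* 1390 against 1203. The place of *KRT80* therefore depends on the length used, and transcript length was not tried.

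**Figure D1:**
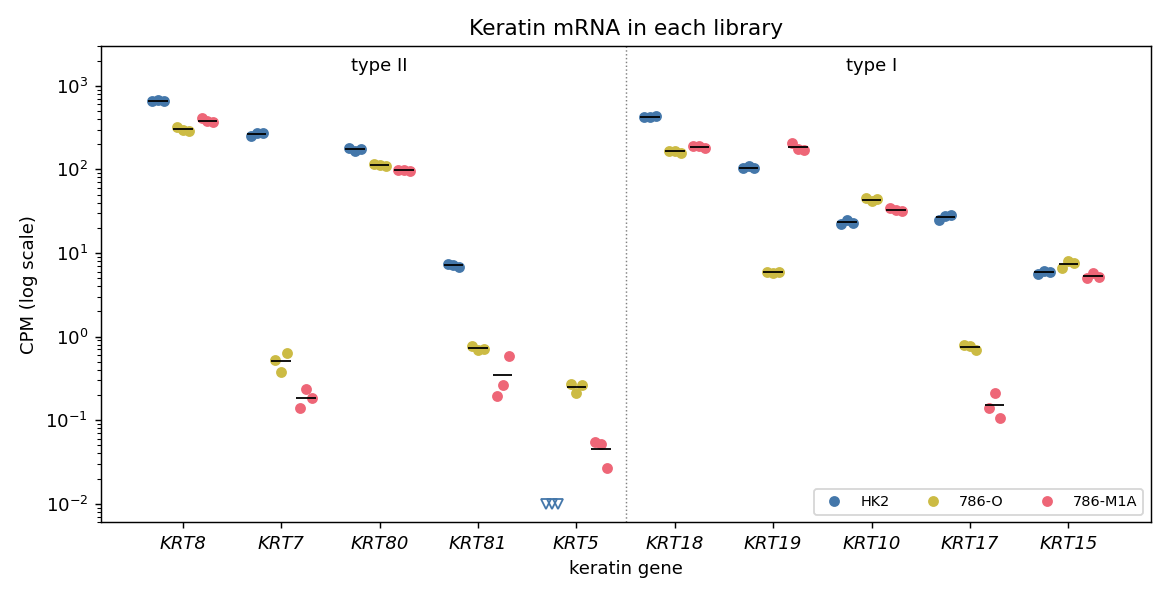
Level of the 10 keratin genes in CPM on a log axis, with a point per library, a line at the mean of each cell line and open triangles for libraries with 0 counts, drawn at the bottom. *KRT7* and *KRT17* stand far lower in both cancer lines than in HK2, and *KRT19* is low in 786-O, at 5.90 CPM, but not in 786-M1A, at 186 CPM.

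The 3 lines were tested against each other by edgeR's quasi-likelihood test in a single fit of all 9 libraries, with p-values adjusted by the Benjamini-Hochberg (BH) method over the 12695 genes that averaged 50 counts or more, and a threshold of 0.05. Of the 10 keratins 9 passed this filter and *KRT5* did not. *KRT7*, *KRT17* and *KRT81* passed it only through HK2, where they were high, so that they had to differ from HK2 and the counts that follow are a description. In 786-O against HK2, 7 members were lower, where 42.6% of all genes tested were called lower, and 2 were higher, where 41.6% were. In 786-M1A against HK2, 6 were lower (43.3% of all genes) and 2 were higher (41.6%). In 786-M1A against 786-O, 6 were lower (28% of all genes) and 3 were higher (27.9%). Both comparisons with HK2 share its libraries.

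A difference of at least 4-fold was less common among all genes. In 786-O against HK2, 4 members were lower by at least this much (6.87% of all genes) and 0 were higher (3.28%). In 786-M1A against HK2, 3 were lower (8.33%) and 0 were higher (3.41%). In 786-M1A against 786-O, 1 was lower (2.08%) and 1 was higher (0.725%). With at least 10 counts required in every library, which removed *KRT7*, *KRT17* and *KRT81*, 1, 0 and 1 members differed by 4-fold in the 3 comparisons. The median log2 fold change (log2FC) of all genes tested lay between -0.02 and 0.00.

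**Figure D2:**
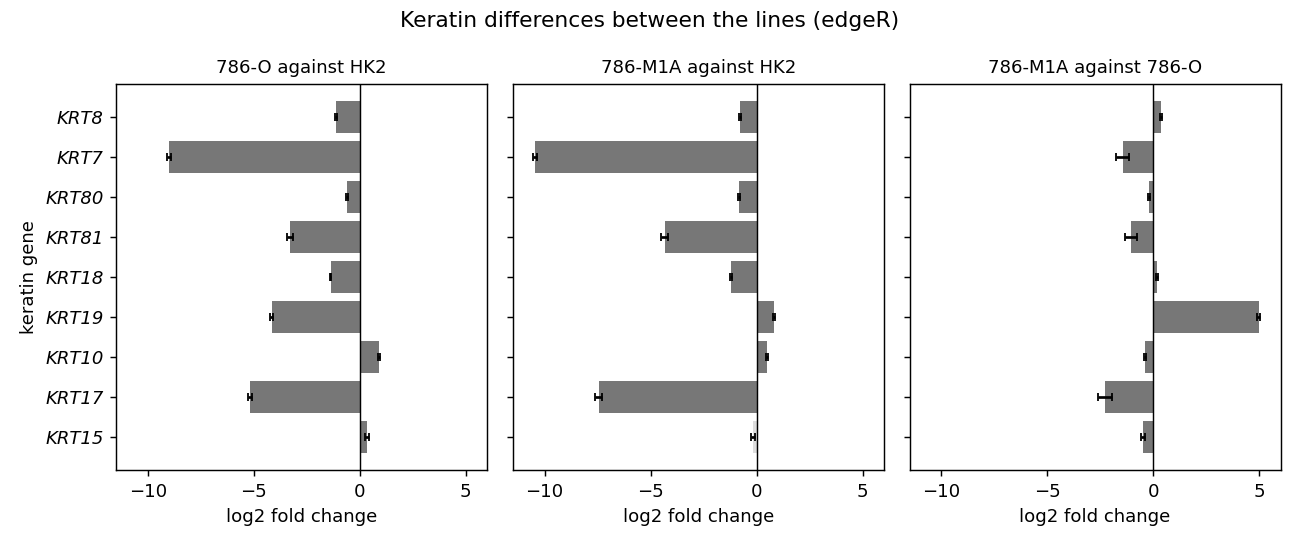
Log2 fold change of the 9 keratins tested in the 3 comparisons of cell lines, with bars for the edgeR estimate. Whiskers show the size of that estimate divided by the square root of its F statistic. They are too short for *KRT7*, *KRT17* and *KRT81* against HK2, where DESeq2 gave larger standard errors. Dark bars passed an adjusted p of 0.05 and light bars did not, but *KRT7*, *KRT17* and *KRT81* had to differ from HK2. *KRT19* runs from -4.16 in 786-O against HK2 to 4.98 in 786-M1A against 786-O, while *KRT7* and *KRT17* are lower in all 3 panels.

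*KRT19* (NCBI gene 3880, chromosome 17, 41523617 to 41528308), the smallest keratin and one of simple and ductal epithelia, was the member that differed most between the cancer lines. HK2 libraries had 103, 110 and 104 CPM, 786-O libraries 5.90, 5.84 and 5.95 CPM, and 786-M1A libraries 209, 178 and 172 CPM. The 3 lines did not overlap, with 786-M1A the highest and 786-O the lowest. *KRT19* was 17.9-fold lower in 786-O than in HK2 (log2FC -4.16, standard error 0.08, edgeR BH-adjusted p = 4.91e-18). In 786-M1A it was 31.5-fold higher than in 786-O (log2FC 4.98, standard error 0.08, edgeR BH-adjusted p = 4.82e-18) and 1.76-fold higher than in HK2 (log2FC 0.82, standard error 0.06, edgeR BH-adjusted p = 5.38e-10). On the scale of CPM per kb, 19.9% of the 11912 genes compared lay below *KRT19* in 786-O and 89.5% in 786-M1A.

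Of the genes next to *KRT19* on chromosome 17, *KRT15*, 4.73 kb away, was the nearest and was lower in 786-M1A than in 786-O, with values given further on. *KRT13*, 18.0 kb away, had a mean of 2.67 counts per HK2 library, 3.00 for 786-O and 2.00 for 786-M1A, and *KRT9* and *KRT35*, within 50 kb, had 0 counts in every library. *LINC00974*, 21.3 kb away, had a mean of 0.333 counts in HK2 and 0 in both cancer lines. These other neighbours are at or near the floor, where a difference between lines was not detectable at this depth.

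*KRT7* (NCBI gene 3855, chromosome 12, 52233243 to 52255853), the type II keratin of ducts, was the member that fell most from HK2 to the cancer lines. HK2 libraries had 249, 270 and 269 CPM from 7750, 10889 and 12463 counts. The 786-O libraries had 0.518, 0.371 and 0.637 CPM from 23, 14 and 27 counts, and the 786-M1A libraries 0.138, 0.234 and 0.185 CPM from 5, 9 and 7 counts. The 3 lines did not overlap. *KRT7* was 508-fold lower in 786-O (log2FC -8.99, standard error 0.19 in DESeq2) and 1385-fold lower in 786-M1A than in HK2 (log2FC -10.44, standard error 0.32 in DESeq2). Both values are a description, since *KRT7* passed the filter only through HK2 and had to differ from it. From 786-O to 786-M1A *KRT7* fell by a further 1.45 on the log2 scale (standard error 0.37 in DESeq2, edgeR BH-adjusted p = 4.71e-04).

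*KRT17* (NCBI gene 3872, chromosome 17, 41619442 to 41624575), a type I keratin of basal and wounded epithelia, had a similar order of lines. It was at 24.5, 27.8 and 28.5 CPM in HK2, at 0.788, 0.769 and 0.684 CPM in 786-O and at 0.138, 0.208 and 0.106 CPM in 786-M1A, from 4 to 8 counts per library in the last. No library of one line overlapped with another line. The log2FC was -5.17 in 786-O against HK2 (standard error 0.17 in DESeq2), -7.45 in 786-M1A against HK2 (standard error 0.36 in DESeq2) and -2.28 in 786-M1A against 786-O (standard error 0.39 in DESeq2, edgeR BH-adjusted p = 2.51e-06). *KRT17* also passed the filter only through HK2, so that its values against HK2 are a description. Of its transcript, 4.57% of the 75-base windows are also found letter by letter in transcripts of other genes, so that the *KRT17* counts may be shared.

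*KRT81* (NCBI gene 3887, chromosome 12, 52285913 to 52291534), a hair keratin 30.1 kb from *KRT7*, was low in each line and lowest in 786-M1A. HK2 libraries had 7.29, 7.26 and 6.77 CPM, 786-O libraries 0.766, 0.690 and 0.708 CPM, and 786-M1A libraries 0.193, 0.260 and 0.581 CPM. The last library, replicate 3 with 22 counts, stood apart from the others of its line, with 7 and 10 counts. *KRT81* was lower than in HK2 by a log2FC of -3.29 in 786-O and of -4.34 in 786-M1A, which is a description, since it passed the filter only through HK2. It was lower in 786-M1A, set against 786-O, by -1.05 (edgeR BH-adjusted p = 0.00409). Without 786-M1A replicate 3 the values for 786-M1A were -4.94 against HK2 and -1.65 against 786-O. *KRT86* spans *KRT81* on the other strand, 33.0% of the 75-base windows of *KRT81* are also in *KRT86*, and the strand setting of the counting is not given in the sources used here, so the counts of the pair are uncertain.

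*KRT8* (NCBI gene 3856, chromosome 12, 52897191 to 52949860) and *KRT18* (NCBI gene 3875, chromosome 12, 52948855 to 52952906), the partners of simple epithelia, were lower in both cancer lines than in HK2 by smaller factors than *KRT7*, and *KRT8* remained the most abundant member. *KRT8* was at 656, 673 and 657 CPM in HK2, at 317, 298 and 288 CPM in 786-O and at 409, 379 and 364 CPM in 786-M1A. *KRT18* was at 422, 429 and 429 CPM in HK2, at 167, 167 and 159 CPM in 786-O and at 190, 188 and 179 CPM in 786-M1A. For both genes the lines did not overlap and 786-M1A lay between the others.

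The log2FC of *KRT8* was -1.14 in 786-O (standard error 0.04, edgeR BH-adjusted p = 3.43e-16) and -0.79 in 786-M1A against HK2 (standard error 0.04, edgeR BH-adjusted p = 1.76e-13), and 0.35 in 786-M1A against 786-O (standard error 0.04, edgeR BH-adjusted p = 4.90e-07). That of *KRT18* was -1.38 in 786-O (standard error 0.04, edgeR BH-adjusted p = 4.74e-19) and -1.20 in 786-M1A against HK2 (standard error 0.04, edgeR BH-adjusted p = 4.37e-18), and 0.18 in 786-M1A against 786-O (standard error 0.04, edgeR BH-adjusted p = 3.36e-04). The spans of both genes overlap on opposite strands. Windows of 75 bases shared with other transcripts made up 18.8% of the *KRT8* transcript, 11.1% with the pseudogene *KRT8P3*, and 6.50% of that of *KRT18*. GENCODE lists 51 pseudogenes of *KRT8* and 67 of *KRT18*, of which the counts hold 1 for each, so that part of the counts of both genes is uncertain.

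The partners did not fall equally. The ratio of *KRT8* to *KRT18* counts was 1.56, 1.57 and 1.53 in HK2, 1.89, 1.79 and 1.81 in 786-O, and 2.15, 2.02 and 2.03 in 786-M1A. Each library of 786-M1A was above each of 786-O, and these above each of HK2. On the log2 scale the ratio differed between the 3 lines (F = 80.9, exact permutation test, p = 0.00357, the smallest that 1680 splits can give). By pairs the difference was 0.24 between 786-O and HK2, 0.41 between 786-M1A and HK2 and 0.17 between 786-M1A and 786-O (exact two-sided permutation tests, p = 0.1 each, the smallest that 3 libraries against 3 allow, and 0.1 after adjustment over the 3 pairs).

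**Figure D3:**
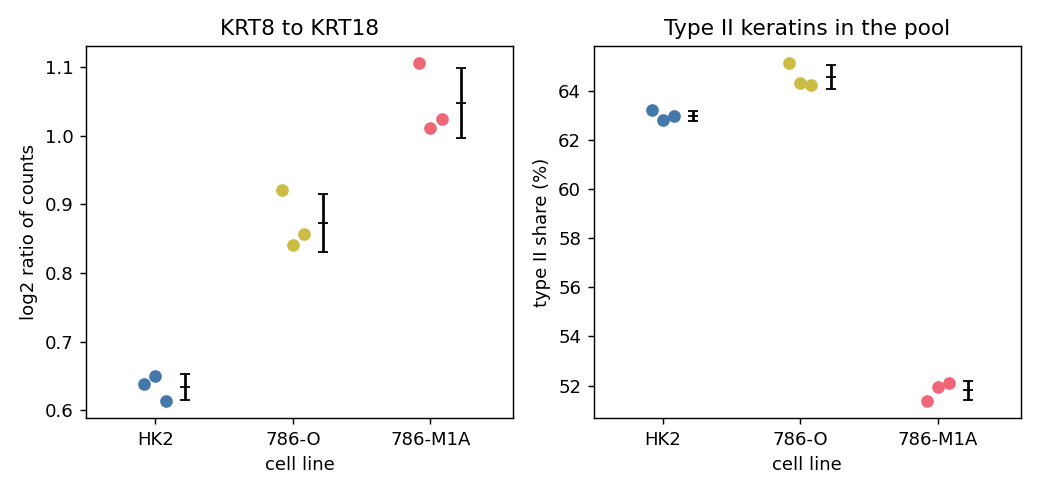
Left, the log2 ratio of *KRT8* to *KRT18* counts, and right, the share of type II genes in the keratin counts per kb of coding length, in %, with a point per library and mean ± SD of the 3 libraries beside them; the axes do not start at 0. The ratio is highest in 786-M1A, and the type II share is 51.8% there against 63.0% in HK2 and 64.6% in 786-O.

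*KRT80* (NCBI gene 144501, chromosome 12, 52168996 to 52192014), a type II keratin found in many epithelia, was lower in both cancer lines than in HK2, and lowest in 786-M1A. HK2 libraries had 182, 165 and 175 CPM, 786-O libraries 116, 114 and 110 CPM, and 786-M1A libraries 98.6, 99.6 and 94.9 CPM. The lines did not overlap and followed the order HK2, 786-O, 786-M1A. Its log2FC was -0.62 in 786-O (edgeR BH-adjusted p = 6.48e-12) and -0.83 in 786-M1A against HK2 (edgeR BH-adjusted p = 3.67e-14), and -0.21 between the cancer lines (standard error 0.04, edgeR BH-adjusted p = 2.02e-04).

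*KRT10*, the type I keratin of the upper epidermis, was higher in both cancer lines than in HK2. It was at 22.3, 24.5 and 23.0 CPM in HK2, at 44.8, 41.5 and 44.3 CPM in 786-O and at 34.7, 32.8 and 31.8 CPM in 786-M1A, with no overlap between lines. The log2FC was 0.90 in 786-O (standard error 0.05, edgeR BH-adjusted p = 4.60e-13) and 0.50 in 786-M1A against HK2 (standard error 0.05, edgeR BH-adjusted p = 1.35e-08), and -0.40 in 786-M1A against 786-O (standard error 0.05, edgeR BH-adjusted p = 7.83e-07). *KRT10-AS1*, on the other strand of the same place, had a mean of 504 counts per HK2 library, 738 for 786-O and 533 for 786-M1A, and how much the 2 genes share was not tested.

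*KRT15* (NCBI gene 3866, chromosome 17, 41513745 to 41518890), a type I keratin of basal cells, was low in each line, between 4.97 and 8.12 CPM in the 9 libraries. HK2 libraries had 5.59, 6.02 and 5.998 CPM, 786-O libraries 6.67, 8.12 and 7.50 CPM, and 786-M1A libraries 4.97, 5.73 and 5.18 CPM. All libraries of 786-O were above those of the other lines, while HK2 and 786-M1A overlapped. *KRT15* was higher in 786-O than in HK2 by a log2FC of 0.33 (edgeR BH-adjusted p = 0.00183) and lower in 786-M1A, set against 786-O, by -0.48 (edgeR BH-adjusted p = 1.17e-04). Between 786-M1A and HK2 the log2FC was -0.15, with a 95% interval from -0.34 to 0.03 (edgeR BH-adjusted p = 0.136).

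*KRT5*, the type II keratin of basal cells, was at the edge of detection. It had 0 counts in each HK2 library, 12, 8 and 11 counts in 786-O and 2, 2 and 1 counts in 786-M1A. Summed over the 3 libraries of a line, this is 0.250 CPM in 786-O (95% exact Poisson interval 0.170 to 0.355) and 0.0431 CPM in 786-M1A (0.0140 to 0.101), and the floor of 3 counts over the HK2 libraries is 0.0262 CPM. The *KRT5* value of 786-O was therefore 9.55-fold above the HK2 floor, without allowance for its own counting error. *KRT5* was 5.80-fold higher in 786-O than in 786-M1A (95% interval from 2.24 to 19.1 by counting error alone). The lines did not overlap (exact two-sided permutation test, p = 0.1 for each of the 3 pairs, the smallest possible). In the fit without a filter on low counts, its log2FC between 786-M1A and 786-O was -2.40 (edgeR BH-adjusted p = 9.98e-04).

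The make-up of the pool changed with *KRT7* and *KRT19*. As shares of the keratin counts per kb of coding length, *KRT7* held 14.5%, 15.3% and 15.4% in the HK2 libraries and between 0.0138% and 0.1003% in the cancer lines. *KRT19* held 7.08 ± 0.191% (SD, n = 3) in HK2, 1.05 ± 0.0403% for 786-O and 23.1 ± 1.18% for 786-M1A. *KRT8* held 36.9 ± 0.353%, 44.5 ± 0.729% and 39.5 ± 0.118%, and *KRT18* 26.7 ± 0.118%, 27.3 ± 0.419% and 21.5 ± 0.696%, in the same order. *KRT80* held 10.3 ± 0.636% in HK2, 17.9 ± 0.127% for 786-O and 10.8 ± 0.476% for 786-M1A. Its transcript has 3873 bases against a coding length of 1359, so its share and that of type II genes depend on the length used. Division by transcript length was not tried. Type II genes together held 63.2%, 62.8% and 63.0% in HK2, 65.2%, 64.3% and 64.3% in 786-O, and 51.4%, 51.9% and 52.1% in 786-M1A.

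The libraries of 786-M1A were thus all below those of the other lines in the type II share, which differed between the 3 lines (F = 1000, exact permutation test, p = 0.00357, the smallest possible). The difference was -12.8 percentage points between 786-M1A and 786-O, -11.2 between 786-M1A and HK2 and 1.58 between 786-O and HK2 (exact two-sided permutation tests, p = 0.1 each, the smallest possible, and 0.1 after adjustment over the 3 pairs). Without division by length the last was 0.388 percentage points and the libraries of 786-O and HK2 were no longer fully apart (exact permutation test, p = 0.3, and p = 0.0107 over the 3 lines), while 786-M1A stayed below both.

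**Figure D4:**
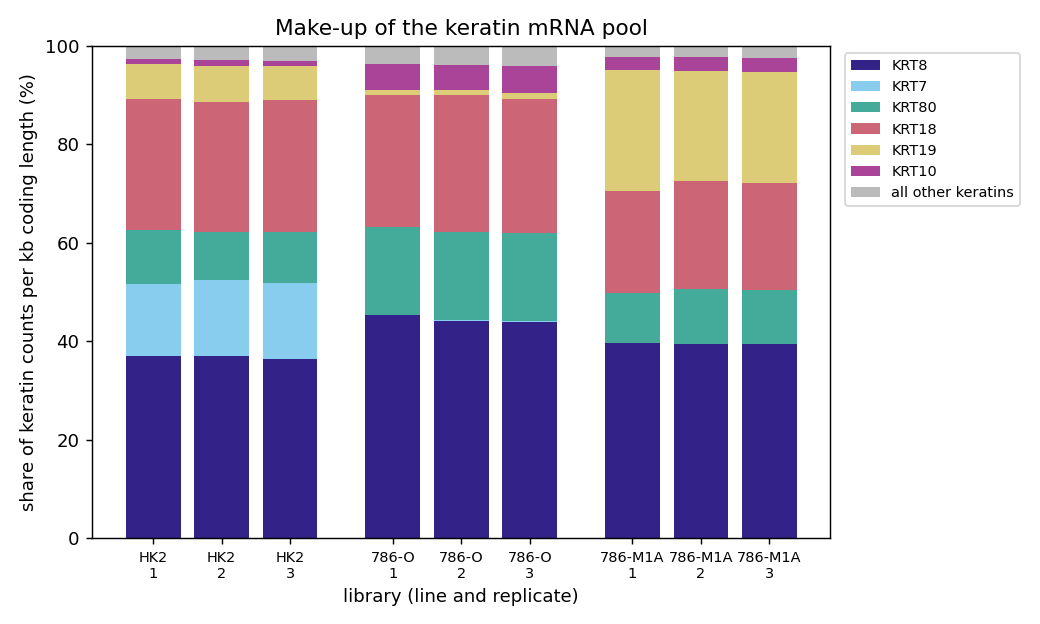
Stacked bars of the share of each keratin in the keratin counts per kb of coding length, in %, for each of the 9 libraries. *KRT7* is visible only in HK2, and *KRT19* grows from 1.05% in 786-O to 23.1% in 786-M1A, mean of 3 libraries.

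The likeness of patterns was measured as the root mean square difference of log2 CPM, centred on each gene's mean, over the 9 libraries, which share 3 lines. For *KRT8* the nearest of the 12694 other genes were *ARAP3* (0.0607), *UGCG* (0.0638) and *CD40* (0.0652), and its partner *KRT18* ranked 302 (0.173). For *KRT18* they were *RAD51B* (0.0517), *DSTN* (0.0536) and *GRAMD2B* (0.0572), with *KRT8* at rank 239. For *KRT7*, which had at most 27 counts in any cancer library, they were *FBLN1* (0.310), *SYT14* (0.322) and *LAD1* (0.370). The member nearest to *KRT7* was *KRT17* at rank 261 (1.67), which is not a close likeness either. For *KRT19*, which was added after its values were seen, they were *KCNJ5-AS1* (0.370), *LONRF3* (0.478) and *ASS1* (0.589). Its nearest member was *KRT8* at rank 387, with a difference of 1.91 that is not a close likeness. Between *KRT8* and *KRT18* the measure was smaller than between either of them and any other member (0.262 for *KRT8* and *KRT80*, the next).

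Of the 44 other type I and type II keratin genes in the table, 36 had under 10 counts in every library, 14 of them 0 throughout, and 3 passed the filter. *KRT79*, a type II keratin of skin glands that passed the filter only through the cancer lines and so had to differ, was at 0.578, 0.397 and 0.669 CPM in HK2, at 12.2, 12.3 and 13.2 CPM in 786-O and at 15.0, 13.1 and 14.9 CPM in 786-M1A, a log2FC against HK2 of 4.50 and 4.69. It was the 1 keratin of those tested with a difference of at least 4-fold upward from HK2. *KRT86*, the hair keratin that overlaps *KRT81*, was at 3.50 ± 0.512 CPM in HK2 (mean ± SD, n = 3), against 0.251 ± 0.0451 CPM for 786-O and 0.124 ± 0.0279 CPM for 786-M1A. *KRT34* was between 1.00 and 1.59 CPM in all 9 libraries and was not called in any comparison. Under the filter, *KRT72* had 39, 46 and 67 counts in HK2 and 0 in every cancer library, *KRT3* had 34, 30 and 29 counts in 786-O, up to 8 in HK2 and up to 10 in 786-M1A, and *KRT33B* had 36, 19 and 24 counts in 786-O, up to 3 in HK2 and up to 12 in 786-M1A. *KRT4* and *KRT78* were at most 40 counts in any library.

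Keratin filaments are held at the desmosome by desmoplakin and plakoglobin and bound to other filaments by plectin. Of 21 listed genes of desmosomes and keratin linkers 15 were tested. Against HK2, 9 were lower and 3 higher in 786-O, and 9 lower and 3 higher in 786-M1A, with a median log2FC of -1.32 and -1.79, where 42.6% and 43.3% of all genes tested were lower and 41.6% were higher in each. Between the cancer lines 5 were lower and 2 higher in 786-M1A, with a median of -0.09, where 28% of all genes were lower and 27.9% higher. *DSP*, desmoplakin, was at 295, 268 and 337 CPM in HK2, at 0.405, 0.876 and 0.448 CPM in 786-O and at 0.138, 0.104 and 0.0528 CPM in 786-M1A, a log2FC of -9.05 in 786-O against HK2 and of -2.49 in 786-M1A against 786-O (edgeR BH-adjusted p = 0.0104). *DSP* passed the filter only through HK2 and had to differ from it, as did *DSC3*, *INA*, *NEFH*, *ESRP1*, *ESRP2*, *CEBPA* and *KRT86*, and their values against HK2 are a description.

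*DSC3*, a desmosomal cadherin, had 38.2 ± 1.70 CPM (SD, n = 3) in HK2 and 0 counts in every cancer library. The floor of 3 counts over a line lay 1625-fold below its HK2 value in 786-O and 1522-fold below it in 786-M1A. *JUP*, plakoglobin, was at 88.4 ± 4.37 CPM in HK2 (mean ± SD, n = 3), against 16.1 ± 0.956 CPM for 786-O and 3.52 ± 0.348 CPM for 786-M1A. *PKP2*, a plakophilin, fell from 8.82 ± 0.385 CPM in 786-O to 0.579 ± 0.0732 CPM in 786-M1A (log2FC -3.92, edgeR BH-adjusted p = 6.44e-17). *PLEC*, plectin, went the other way, with 318 ± 19.5 CPM in HK2 (mean ± SD, n = 3), against 1178 ± 116 CPM for 786-O and 1206 ± 85.8 CPM for 786-M1A. *PKP3*, another plakophilin, was also higher than in HK2, with a log2FC of 0.92 in 786-O and 1.28 in 786-M1A. *DSG2* and *PKP4* were not called in either cancer line against HK2.

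Of 13 other intermediate filament genes 9 were tested, of which 6 were higher and 3 lower in 786-O than in HK2, 5 higher and 3 lower in 786-M1A than in HK2, and 5 higher and 1 lower in 786-M1A than in 786-O, with medians of 0.46, 0.58 and 0.13. Of all genes tested, 41.6%, 41.6% and 27.9% were higher and 42.6%, 43.3% and 28% lower in these comparisons. *VIM*, the vimentin of mesenchymal cells, was at 1346, 1417 and 1427 CPM in HK2, at 4889, 4853 and 4789 CPM in 786-O and at 6605, 6435 and 6572 CPM in 786-M1A. Its 3 lines did not overlap, and the log2FC was 1.79 and 2.23 against HK2 and 0.43 between the cancer lines. *INA* and *NEFH*, of neuronal filaments, were at 67.1 ± 1.70 and 56.6 ± 3.71 CPM (SD, n = 3) in HK2, with at most 2 counts of either in any cancer library. *NEFL*, also of neuronal filaments, went the other way, with a log2FC against HK2 of 9.32 in 786-O and 9.30 in 786-M1A. *NES*, nestin, was at 140 ± 3.09 CPM in HK2 and rose from 6.36 ± 0.401 CPM in 786-O to 11.7 ± 0.843 CPM in 786-M1A (edgeR BH-adjusted p = 7.86e-10).

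Of 21 listed transcription and splicing factors of epithelial genes, repressors among them, 14 were tested. In 786-O 10 were lower and 3 higher than in HK2 (median log2FC -0.60), in 786-M1A 11 lower and 3 higher than in HK2 (-0.53), and in 786-M1A 5 lower and 3 higher than in 786-O (-0.09). The share of all genes called lower was 42.6%, 43.3% and 28%, and that called higher 41.6%, 41.6% and 27.9%. The 3 higher than in HK2 were *KLF4*, *ZEB1* and *ZEB2* in each cancer line. Their log2FC was 1.54, 0.58 and 1.28 in 786-O and 1.49, 0.70 and 1.09 in 786-M1A. *SNAI2*, of the same list, was lower than in HK2, by -0.22 in 786-O and -0.55 in 786-M1A. *SNAI1* was lower by -0.41 in 786-M1A and was not called in 786-O (log2FC 0.03). *TP63*, the master factor of basal cells, and *GRHL2*, an activator of epithelial genes, had at most 1 count in any library. *ESRP1* and *ESRP2*, epithelial splicing factors, were at 3.97 ± 0.109 and 28.5 ± 2.26 CPM (SD, n = 3) in HK2 and at 0.0386 ± 0.0358 and 0.325 ± 0.107 CPM in 786-O. *CEBPA*, a factor of differentiation, was at 9.28 ± 0.937 CPM in HK2, at 0.883 ± 0.158 CPM in 786-O and at 0 counts in every 786-M1A library. The floor of 3 counts over the 786-M1A libraries lay 34.3-fold below its 786-O value.

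Of 8 genes of keratinocyte differentiation 2 were tested. *FLG*, filaggrin, which bundles keratin filaments in the epidermis, had 2, 1 and 1 counts in HK2 and was at 154, 182 and 147 CPM in 786-O and 175, 226 and 190 CPM in 786-M1A, a log2FC against HK2 of 12.08 and 12.37, where it passed the filter only through the cancer lines and had to differ. Between the cancer lines it was 0.29 (edgeR BH-adjusted p = 0.0523). *SFN*, stratifin, was at 31.2 ± 0.283 CPM in HK2 (mean ± SD, n = 3), against 5.38 ± 0.800 CPM for 786-O and 3.83 ± 0.373 CPM for 786-M1A. The keratin partners of filaggrin in the upper epidermis are KRT1, at under 10 counts in every library, and KRT10, described above.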

How the data were processed

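RNA of 9 samples, 3 of each line, was made into TruSeq Stranded mRNA libraries, and reads were counted on genes with Rsubread (featureCounts) on hg38, GRCh38 in the submitters' processing notes. The authors deposited raw counts without normalization or filter. Annotation, strand and treatment of reads that match several places are not given in the sources used here. Symbols came from RefSeq (GRCh38.p14), which matched 27745 of 28395 identifiers, and coding lengths from GENCODE 44 for 11912 of the genes tested.

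Counts were scaled with TMM and tested with edgeR 4.0.16 (robust quasi-likelihood, a coefficient per line, mean of at least 50 counts) in R 4.3.3. Alternatives were DESeq2 1.42.0, RLE and upper-quartile scaling, no filter, at least 10 counts in every library, limma 3.58.1 on median-centred log2 counts (0 set to 0.5, in place of VSN) or with voom, separate fits for each pair of lines, a replicate block, and a fit without each library in turn. The models were tested on simulated data. Members and lists were chosen with earlier results of these data known. Named were the 10 members, other keratins with at least 10 counts in a library, and of each list fixed genes (*VIM*, *DSP*, *JUP*, *PLEC*, *TP63*, *GRHL2*) and the 2 of largest fold change per comparison. *KRT19* in the likeness, *KRT1*, *KLF4*, *ZEB1*, *ZEB2*, *SNAI1*, *SNAI2*, *NEFL*, *PKP3*, *PKP4*, *DSG2*, the neighbours of *KRT19* and the named markers were chosen after their values were seen. Between 30212291 and 45362428 counts per library set the precision. No 2 libraries were identical. Python 3.11.15 was used for the rest.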

Additional observations from a re-analysis of the deposited data

How the results depend on the processing

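Each of the 234 log2 fold changes of single keratins under the alternatives that kept all libraries, and each of the 162 with a library left out, had the direction and the side of the threshold reported, RLE and upper-quartile scaling included. Counts of keratins moved with the filter alone. Without a filter, which adds *KRT5*, 10, 9 and 10 were called in place of 9, 8 and 9 in 786-O against HK2, 786-M1A against HK2 and 786-M1A against 786-O, and 5, 4 and 3 differed by 4-fold in place of 4, 3 and 2. Requiring at least 10 counts in every library leaves 6 to test and gave 6 called in place of 9 in 786-O against HK2 and in 786-M1A against 786-O, 1 with a 4-fold difference in place of 4 in 786-O against HK2, 5 called in place of 8 and 0 with a 4-fold difference in place of 3 in 786-M1A against HK2, and 1 with a 4-fold difference in place of 2 in 786-M1A against 786-O. With each library left out the log2 fold change of *KRT19* between the cancer lines was between 4.89 and 5.03, and that of *KRT7* between -1.65 and -1.26. That of *KRT81* ran from -1.65 to -0.78. The labels give the lines the same replicate numbers, but across genes the departures of like-numbered libraries from their line's mean correlated between 0.0740 and 0.215 for 786-M1A with 786-O, and between -0.167 and 0.0376 for the pairs with HK2, so that the numbers are not taken as pairs. With the replicate block 9, 8 and 9 keratins were called in the 3 comparisons, as without it, and 10688, 10797 and 7157 genes of all were called in place of 10693, 10784 and 7103. For the ratio of *KRT8* to *KRT18* and for the type II share, exact permutation within replicate numbers (the block) gave p = 0.0278 over the 3 lines and 0.25 for each pair, the smallest it allows. The depth limits *KRT5* in all lines and *KRT7*, *KRT17* and *KRT81* in the cancer lines, which rest on at most 35 counts per library. The part of depth, RNA quality and batch beyond the replicate numbers was not tested.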
